A study of Vitis vinifera with 26 samples.

Results

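A set of 63 assembled loci was undetected in every control berry library at 6 weeks after anthesis (WAA) and was detected in every control berry library at 8 WAA, out of 33229 loci in all (0.19%). The loci were selected by those control values alone: under 0.5 units in all 3 control libraries of 6 WAA, and 0.5 units or more in all 5 control libraries of 8 WAA. A unit is the commonest value above 0.5 in a library, of which nearly all locus values were whole multiples, and a locus at 0.5 units or more is called on. The values come from RNA sequencing of berry tissue from clusters of grapevine (Vitis vinifera, cultivar 'Pinot Noir'), grown in the field on plants aged 8 years. Treated clusters received 5 ppm 1-methylcyclopropene (1-MCP), injected into a bag closed around the cluster for 24 h, and were collected after 24 h. Control clusters were mock-treated and came from the same plants, of which 3 were used at 6 WAA, 5 at 7 WAA and 5 at 8 WAA, which gives 26 libraries. Neither the control libraries of 7 WAA nor any treated library entered the selection, and these libraries carry the comparisons that follow.

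Grape berries grow first as hard, green, acidic fruit and then enter ripening at veraison, when they soften, take up sugar and, in red cultivars, begin to colour. Transcripts of many genes first appear at this step. Grape is classed as a non-climacteric fruit, in which abscisic acid has a leading role, although ethylene is produced and perceived in the berry. 1-MCP is a gas that occupies ethylene receptors and blocks the response to ethylene, which is why the study applied it in the weeks around this transition.

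Each library held between 20368 and 23485 units in all, and between 41.9% and 45.9% of the assembled loci were on in every library, whatever the week or treatment. Of the loci that were on, 62.7% to 68.9% stood at 1 unit, so the values mainly tell whether a locus was listed and resolve gradual change poorly. The number of sequenced reads behind a unit is unknown, and a value of 0 is therefore reported as listed at 0, not as absence of the transcript. The source names and titles identify the control libraries, while the description label calls all 26 libraries treated clusters. No label says whether the same plants were used in different weeks. The grapevine identifiers of the loci could not be paired with gene names or products, so no function is given for any locus and the berry origin of the RNA could not be checked with marker genes. In whole berries, fewer cells of a type and less RNA per cell cannot be told apart.

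Selection by a threshold left many loci just outside. Of the 63 loci, 62 were listed at exactly 0 in all 3 control libraries of 6 WAA and the other, XLOC_008652, at 0.000345 units in each, and their lowest value in any control library of 8 WAA was 1 unit. A further 87 loci were off in all control libraries of 6 WAA and on in 4 of the 5 of 8 WAA, with the missing library at exactly 0 in 83 of them. Another 179 loci were on in all control libraries of 8 WAA but also in 1 of the 3 of 6 WAA, where 136 of them stood at 1 unit and the lowest stood at 0.996 units. The opposite switch, on in all control libraries of 6 WAA and off in all of 8 WAA, was met by 238 loci. The 63 loci are therefore the strict core of a wider range. Leaving out 1 of the 3 control libraries of 6 WAA, which could only keep or enlarge the set, gave 147 loci without replicate 1. It gave 100 without replicate 2 and 121 without replicate 3.

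In libraries that played no part in the selection, the loci were on more often from week to week. Treated libraries of 6 WAA had 31, 12 and 21 of the 63 loci on in replicates 1, 2 and 3 (mean 21.3 ± 9.5, SD, n = 3), whereas the selection set the control libraries of 6 WAA to 0. At 7 WAA the count was 37, 30, 25, 33 and 39 in treated replicates 1, 2, 3, 4 and 12 (32.8 ± 5.59, SD, n = 5), against 13, 48, 33, 43 and 39 in the control clusters of the same plants (35.2 ± 13.6, SD, n = 5). Treated libraries of 8 WAA had 55, 54, 54, 52 and 56 of the loci on (54.2 ± 1.48, SD, n = 5), whereas the selection set all control libraries of 8 WAA to 63. The counts of the treated 8 WAA libraries lay above those of all treated libraries of 6 and 7 WAA, while the counts of the treated 7 and 6 WAA libraries overlapped.

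**Figure D1:**
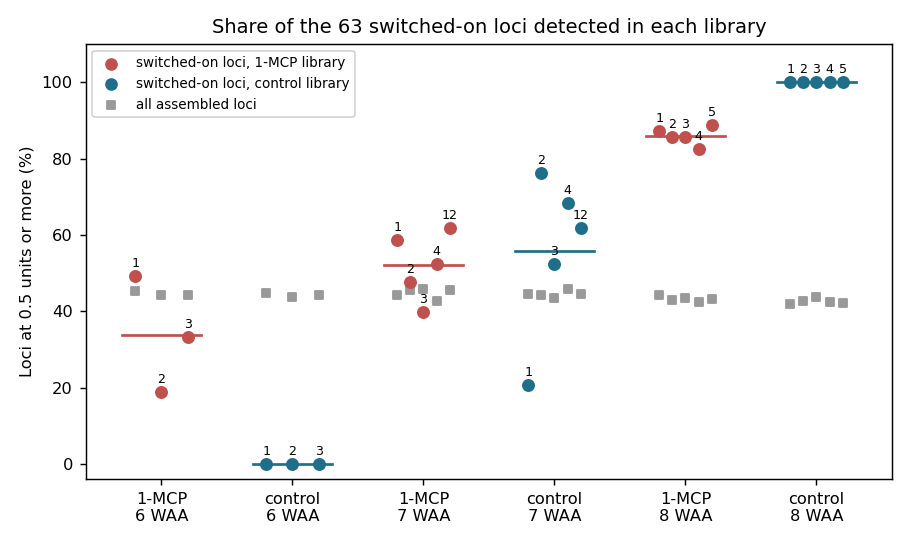
Share of loci at 0.5 units or more (percent, vertical axis) in each library, by week and treatment (horizontal axis); circles are the 63 switched-on loci with the replicate number above, horizontal lines their group means, and grey squares all assembled loci in the same library. The 5 treated libraries of 8 WAA lie together, the control libraries of 7 WAA spread widely, and all assembled loci stay between 41.9% and 45.9%; the control values of 6 and 8 WAA were fixed by the selection.

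Each condition of the selection can be read on its own as a background. The 10625 loci that were on in all control libraries of 8 WAA were on in 97.7% of treated values of 8 WAA, 96.9% of treated and 96.9% of control values of 7 WAA, and 96.7% of treated values of 6 WAA. For the 63 loci the same shares were 86.0%, 52.1%, 55.9% and 33.9%. The 15699 loci that were off in all control libraries of 6 WAA were on in 3.36% of treated values of 6 WAA, 4.7% of treated and 4.45% of control values of 7 WAA, and 4.33% of treated values of 8 WAA. The 63 loci thus lay between these backgrounds in every group of libraries, nearest to the loci present at 8 WAA in the treated clusters of 8 WAA.

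Summed over the 63 loci, the level was 37, 15 and 28.4 units in treated libraries of 6 WAA. It was 45.9, 42, 27, 43 and 47 units in treated replicates 1, 2, 3, 4 and 12 of 7 WAA, against 15, 71, 45, 63 and 52 units in the control replicates. At 8 WAA it was 72, 73.3, 79, 69 and 78 units in treated libraries, against 83, 92, 83, 81 and 86 units in control libraries. The treated sums of 8 WAA lay above those of both earlier treated weeks and below those of the control clusters of 8 WAA, in which the selection required every locus to be on, so this last difference was not tested.

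The first question was when the loci appeared in control berries. At 7 WAA the 63 loci were neither uniformly off nor uniformly on in control clusters. Of them, 9 were on in all 5 control libraries, where 33.4% of all assembled loci were, and 2 were off in all 5, where 44% of all loci were. The other 52 were mixed: 13 were on in 1 library, 13 in 2, 12 in 3 and 14 in 4. Among all assembled loci such mixed states were the minority.

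The mixed loci differed from cluster to cluster. Control replicate 1 of 7 WAA had 13 of the 63 loci on and replicate 2 had 48, although both libraries had an ordinary share of all loci on. In 13 of the 63 loci, all control libraries of 7 WAA except replicate 1 were on, a pattern held by 1.38% of all loci. Another 9 loci were on in control replicate 2 alone, which was the pattern of 1.29% of all loci, and 6 were on in replicates 2 and 4 alone, the pattern of 0.497% of all loci. Without control replicate 1, and with the selection otherwise kept, 22 of the 63 loci were on in all remaining control libraries of 7 WAA. Without control replicate 2, 11 of the 63 were off in all remaining ones.

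**Figure D2:**
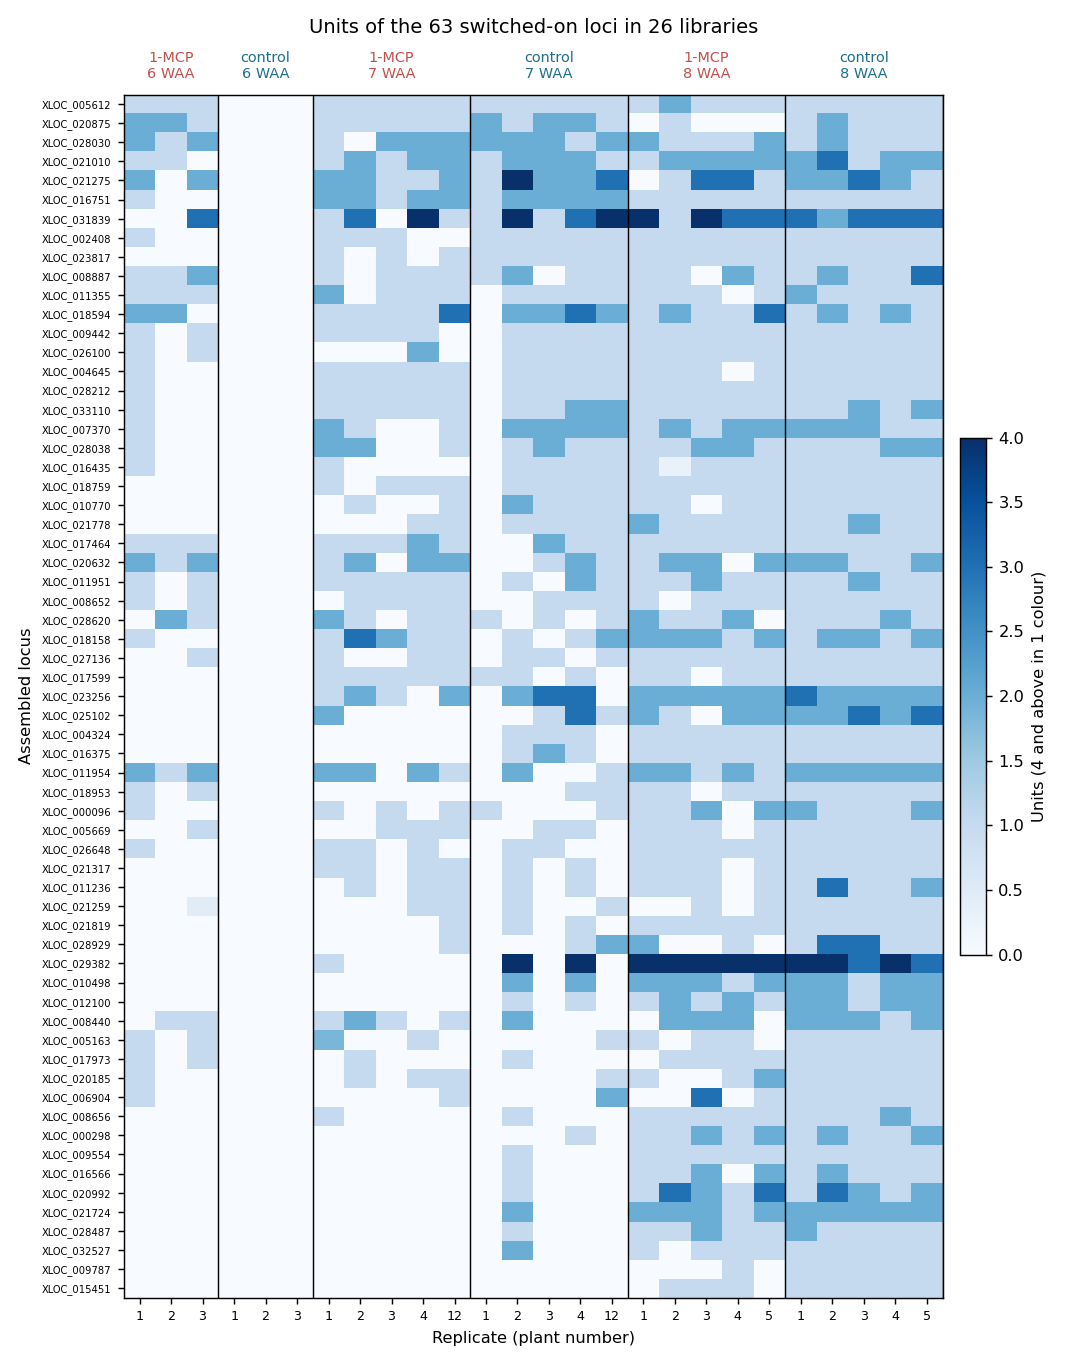
Units (colour scale, 4 and above in 1 colour) of each of the 63 loci (rows, ordered by the number of control 7 WAA libraries in which they were on) in the 26 libraries (columns, by treatment, week and replicate number). Control replicate 1 of 7 WAA is mostly blank and replicate 2 mostly filled, and the blank control columns of 6 WAA and the filled control columns of 8 WAA follow from the selection.

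Loci present in every control cluster of 7 WAA were early members of the set. XLOC_021275, which carries the reference identifier VIT_204s0008g03920 on chromosome 4 (3246967 to 3250642), had 1, 4, 2, 2 and 3 units in control replicates 1, 2, 3, 4 and 12. Its treated counterparts of 7 WAA had 2, 2, 1, 1 and 2 units, and it was listed at 2, 0 and 2 units in treated libraries of 6 WAA and at 0, 1, 3, 3 and 1 units in those of 8 WAA. The 7 WAA groups overlapped, and the locus was already listed in 2 of the 3 treated libraries of 6 WAA.

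XLOC_031839 (VIT_200s0187g00190 and VIT_200s0187g00240, on unplaced sequence, 9116202 to 9171712) had 1, 3, 0, 4 and 1 units in treated and 1, 4, 1, 3 and 4 units in control clusters of 7 WAA. In treated clusters it had 0, 0 and 3 units at 6 WAA and 4, 1, 4, 3 and 3 units at 8 WAA, beside 3, 2, 3, 3 and 3 units in control clusters of 8 WAA. Its values overlapped between every pair of treated weeks. The locus combines 10 isoforms and more than 1 reference identifier, so its units may be shared with near-identical copies and are uncertain.

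Further early loci were low and even. XLOC_016751 (VIT_219s0085g00600 and VIT_219s0085g00610, chromosome 19, 23001122 to 23012162) had 2, 2, 1, 2 and 2 units in treated and 1, 2, 2, 2 and 2 units in control clusters of 7 WAA. It stood at 1 unit in all 5 treated and all 5 control clusters of 8 WAA, and at 1, 0 and 0 units in treated clusters of 6 WAA, so its highest values were those of 7 WAA. XLOC_021010 (VIT_204s0044g00700, chromosome 4, 21749924 to 21754454) had 1, 2, 1, 2 and 2 units in treated and 1, 2, 2, 2 and 1 units in control clusters of 7 WAA. It was also on in 2 of the 3 treated clusters of 6 WAA, at 1 unit each, and had 1, 2, 2, 2 and 2 units in treated clusters of 8 WAA. XLOC_028030 (VIT_208s0040g00900, chromosome 8, 11895540 to 11899239) had 2, 2, 2, 1 and 2 units in control clusters of 7 WAA and 2, 1 and 2 units in treated clusters of 6 WAA, an overlapping range.

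Both loci that were off in every control cluster of 7 WAA were also off in every treated cluster of 6 and 7 WAA. XLOC_009787 (VIT_215s0021g00540, chromosome 15, 10194178 to 10194877) had 0, 0, 0, 1 and 0 units in treated clusters of 8 WAA, against 1 unit in each control cluster of 8 WAA. XLOC_015451 (VIT_218s0117g00100, chromosome 18, 23176472 to 23176941) had 0, 1, 1, 1 and 0 units in treated clusters of 8 WAA, against 1 unit in each control. These were the latest loci of the set in control clusters. A value of 1 unit is the lowest a library commonly holds, and the selection required it in the controls, so their lower detection in treated clusters was not tested.

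The next question was whether the same switch took place in treated clusters. Among the 63 loci, 35 were on in all 5 treated libraries of 8 WAA, as were 33.5% of all assembled loci. At least 4 of these libraries had the locus on for 54 of the 63, and for 39.8% of all loci. In treated libraries of 6 WAA, 27 were off in all 3, as were 48.2% of all loci, and 8 were on in all 3, as were 37.4%. A larger share of treated libraries had the locus on at 8 WAA than at 6 WAA for 53 of the 63 loci, against 12.2% of all loci. The share was smaller for 6 of the 63, against 14.2% of all loci. When the selection was repeated in treated libraries (off in all 3 of 6 WAA, on in all 5 of 8 WAA), 70 of all loci (0.211%) met it. Of these, 16 belonged to the 63, which is 25.4% of the 63 and 22.9% of the 70. In 16 of the 63 loci every treated 8 WAA value lay above every treated 6 WAA value, as in 0.304% of all loci, and in 10 every treated 8 WAA value lay above every treated 7 WAA value, as in 0.0903% of all loci.

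A linear model was fitted with limma to log2(value + 1) in the 13 treated libraries, over 18622 loci that passed a filter on low values, with Benjamini-Hochberg adjustment over all of them. All 63 loci passed that filter through their control values, whether or not they differed between treated weeks. Between treated clusters of 8 and 6 WAA, 10 of the 63 loci rose and none fell at an adjusted p under 0.05, while 0.14% of all tested loci rose and 0.285% fell. At an unadjusted p under 0.05, 30 of the 63 were higher and 1 was lower at 8 WAA, beside 3.07% of all loci higher and 4.84% lower. The median difference was 0.68 on the log2 scale over the 63 loci and 0.003 over all tested loci, and 55 of the 63 were higher by more than 0.05, as were 34.8% of all loci.

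Between treated clusters of 7 and 6 WAA none of the 63 loci passed an adjusted p of 0.05 in limma, beside 0.0376% of all tested loci that rose and 0.0967% that fell. At an unadjusted p under 0.05, 11 of the 63 were higher and 1 was lower at 7 WAA, beside 2.78% of all loci higher and 2.56% lower. XLOC_016751 had the smallest unadjusted p (0.000337), and XLOC_017599 shared its adjusted p of 0.169. XLOC_017599 was at 0 in all treated clusters of 6 WAA and at 1 unit in all 5 of 7 WAA. It was the 1 locus of the 63 in which treated 7 WAA values all lay above those of 6 WAA, as in 0.202% of all loci. The median over the 63 loci was 0.20 on the log2 scale, beside 0 over all loci. This median was 0.102 without treated replicate 2 and 0.118 without replicate 3 of 6 WAA, 0.085 without treated replicate 12 of 7 WAA, and 0.075 with replicate number as a block. The count of calls also turned on single libraries: without treated replicate 1 of 6 WAA, 3 of the 63 loci rose (XLOC_016751, XLOC_028212 and XLOC_033110). A single locus rose without treated replicate 2 of 7 WAA (XLOC_018759), replicate 3 of 7 WAA (XLOC_016751), replicate 4 of 7 WAA (XLOC_023256) or replicate 3 of 8 WAA (XLOC_017599). At XLOC_028212, XLOC_033110 and XLOC_018759 the residual SD was then 0.003, and at XLOC_017599 it was 0.001, so these calls rest on loci with no variation within a week.

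Between treated clusters of 8 and 7 WAA 10 of the 63 loci rose and none fell, beside 0.129% of all tested loci that rose and 0.177% that fell. They were the 10 loci that rose between 8 and 6 WAA, and both tests use the same 5 treated libraries of 8 WAA. At an unadjusted p under 0.05, 18 of the 63 were higher and 2 were lower at 8 WAA, beside 2.64% of all loci higher and 4.74% lower. The median over the 63 was 0.41 on the log2 scale, beside 0.003 over all loci, and 0.257 without treated replicate 3 of 7 WAA.

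**Figure D3:**
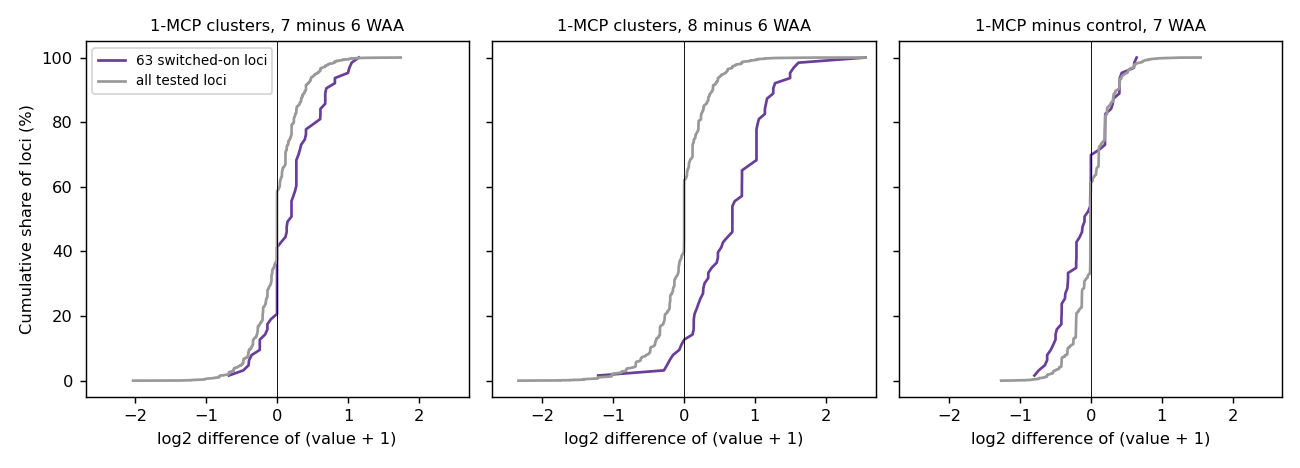
Cumulative share of loci (percent, vertical axis) against the fitted difference in log2(value + 1) (horizontal axis) for treated clusters of 7 minus 6 WAA, treated clusters of 8 minus 6 WAA, and treated minus control clusters of 7 WAA; purple, the 63 switched-on loci; grey, all 18622 tested loci. The purple curve lies well to the right of the grey one for 8 minus 6 WAA, with medians of 0.68 and 0.003, less so for 7 minus 6 WAA, and slightly to its left for treated minus control at 7 WAA.

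The 10 loci that rose shared 1 course. In treated libraries none of them was on at 6 WAA, 1 was on in 1 of the 5 libraries of 7 WAA, and all 10 were on in each of the 5 libraries of 8 WAA. Low levels at 6 and 7 WAA, higher ones at 8 WAA and little spread within a week in treated clusters are part of what the tests selected. The treated weeks share 1 estimate of the spread, and all 10 loci were listed at 0 throughout treated 6 WAA. Their standard errors and p-values therefore understate any spread between plants within 8 WAA. In control clusters of 7 WAA, which the tests did not use, 0, 9, 2, 6 and 0 of them were on in replicates 1, 2, 3, 4 and 12, with summed levels of 0, 15, 3, 10 and 0 units. The treated clusters of the same plants had summed levels of 1, 0, 0, 0 and 0 units. At 8 WAA the sums were 16, 20, 19, 14 and 18 units in treated and 17, 19, 14, 17 and 17 units in control clusters, which overlapped. No conclusion is drawn from this overlap. The selection required these loci to be on in control clusters of 8 WAA, and the tests favoured high treated values there.

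**Figure D4:**
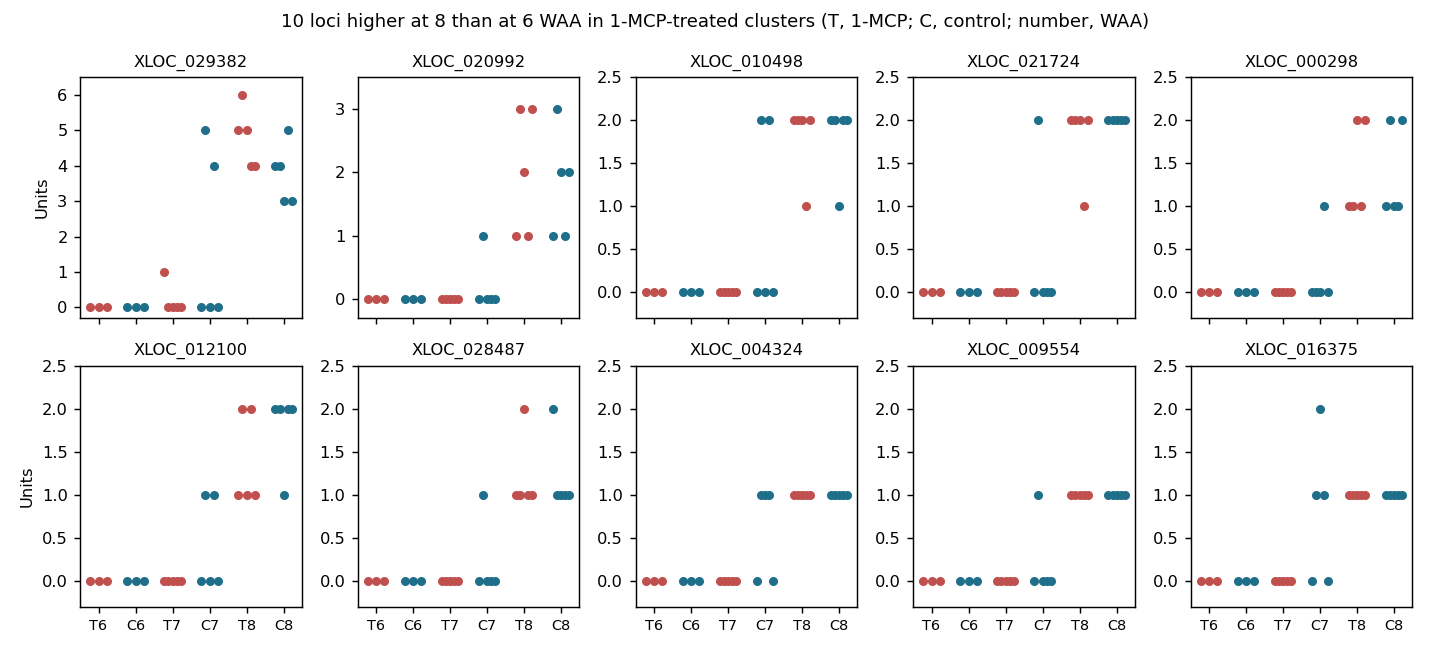
Units (vertical axis) of the 10 loci that rose in treated clusters between 6 and 8 WAA, 1 point per library, by treatment (T and red, 1-MCP; C and blue, control) and week (6, 7 or 8 WAA). Treated clusters of 8 WAA lie above those of 6 and 7 WAA at every locus, with control clusters of 7 WAA split between 0 and the level of 8 WAA; the control points of 6 and 8 WAA were fixed as off and on by the selection.

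XLOC_029382 was the most abundant of all 63 loci at 8 WAA. It joins VIT_209s0054g00860 and VIT_209s0054g00880 on chromosome 9 (21709227 to 21760632). It was listed at 0 in all treated clusters of 6 WAA and at 1, 0, 0, 0 and 0 units in treated clusters of 7 WAA, and it had 5, 6, 5, 4 and 4 units in treated clusters of 8 WAA. In control clusters it had 0, 5, 0, 4 and 0 units at 7 WAA and 4, 4, 3, 5 and 3 units at 8 WAA. The treated weeks did not overlap between 8 WAA and the earlier weeks, and the controls of 7 WAA stood either at 0 or at the level of 8 WAA. In treated clusters it rose by 2.56 ± 0.23 (SE) on the log2(value + 1) scale between 6 and 8 WAA (limma, adjusted p = 0.000174), a value that depends on the added 1 because the locus was listed at 0 at 6 WAA. Between 7 and 8 WAA it rose by 2.36 ± 0.20 (SE, adjusted p = 0.00017). Under the alternative limma fits the adjusted p reached 0.0209 between 6 and 8 WAA and 0.0352 between 7 and 8 WAA. Its 7 isoforms detected in control clusters of 8 WAA and its pair of reference identifiers mean that the units may combine neighbouring copies.

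XLOC_010498 (VIT_215s0048g00500, chromosome 15, 14614498 to 14617628) was listed at 0 in every treated cluster of 6 and 7 WAA and had 2, 2, 2, 1 and 2 units in treated clusters of 8 WAA. In control clusters it had 0, 2, 0, 2 and 0 units at 7 WAA and 2, 2, 1, 2 and 2 units at 8 WAA. XLOC_021724 (VIT_204s0023g03890 and VIT_204s0023g03910, chromosome 4, 20382106 to 20394902) had the same treated values in all 3 weeks. Its control clusters had 0, 2, 0, 0 and 0 units at 7 WAA and 2 units each at 8 WAA. An overlapping assembled locus, XLOC_020949, was on in every library of every group, at group means of 2.6 to 3.0 units. How reads of the overlap were divided between these 2 loci was not tested. XLOC_010498 and XLOC_021724 both rose by 1.496 ± 0.12 (SE) on the log2 scale between treated clusters of 6 and 8 WAA (limma, adjusted p = 7.13e-05). Their only spread within a treated week was 1 unit in replicate 4 of 8 WAA, so this error does not measure a spread between plants. Under the alternative fits the adjusted p reached 0.0108. Treated and control values of 8 WAA overlapped, but both had been used to choose these loci.

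XLOC_020992 (VIT_204s0044g00460, VIT_204s0044g00480 and VIT_204s0044g00483, chromosome 4, 21234508 to 21250340) was listed at 0 in all treated clusters of 6 and 7 WAA and had 1, 3, 2, 1 and 3 units in treated clusters of 8 WAA. Its control clusters had 0, 1, 0, 0 and 0 units at 7 WAA and 1, 3, 2, 1 and 2 units at 8 WAA. The difference between treated clusters of 8 and 6 WAA was 1.55 ± 0.23 (SE, adjusted p = 0.0133). It no longer passed when libraries of 7 WAA were left out of the fit (adjusted p = 0.0727) or when replicate number was added as a block (adjusted p = 0.156). An overlapping assembled locus, XLOC_020993, was on in 6 of the 26 libraries and never in any of the 11 in which XLOC_020992 was on, and how reads of the overlap were divided between them was not tested.

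XLOC_012100 (VIT_216s0050g02680, chromosome 16, 19697155 to 19699942) was listed at 0 in all treated clusters of 6 and 7 WAA and had 1, 2, 1, 2 and 1 units at 8 WAA, with 0, 1, 0, 1 and 0 units in control clusters of 7 WAA. XLOC_000298 (VIT_201s0011g06040, chromosome 1, 5806493 to 5811640) had 1, 1, 2, 1 and 2 units in treated clusters of 8 WAA after 0 in the earlier treated weeks, with 0, 0, 0, 1 and 0 units in control clusters of 7 WAA. XLOC_028487 (VIT_208s0007g06440, chromosome 8, 20203222 to 20207223) had 1, 1, 2, 1 and 1 units in treated clusters of 8 WAA after 0 in the earlier treated weeks, with 0, 1, 0, 0 and 0 units in control clusters of 7 WAA. These 3 loci rose by 1.26 ± 0.15, 1.26 ± 0.15 and 1.14 ± 0.12 (SE) between treated clusters of 6 and 8 WAA (limma, adjusted p = 0.0018, 0.00187 and 0.000931). With replicate number as a block the adjusted p was 0.0652, 0.059 and 0.059.

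The remaining 3 of the 10 loci had no variation within any treated week. XLOC_004324 (no reference identifier, chromosome 12, 5329355 to 5330227), XLOC_009554 (no reference identifier, chromosome 14, 22402610 to 22403186) and XLOC_016375 (VIT_219s0090g01010, chromosome 19, 7108904 to 7110399) were listed at 0 in all treated clusters of 6 and 7 WAA and at 1 unit in all 5 treated clusters of 8 WAA. In control clusters of 7 WAA they had 0, 1, 1, 1 and 0 units, 0, 1, 0, 0 and 0 units, and 0, 1, 2, 1 and 0 units in that order of loci. The fitted difference was 1.02 ± 0.009 (SE) for each (adjusted p = 1.2e-14), but with a residual SD of 0.003 this error reflects only the size of the unit in each library and does not measure a spread between plants.

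Other loci that were off in all treated clusters of 6 WAA, with an earlier or less even course, did not pass with all 13 treated libraries in the fit. Some passed in part of them. XLOC_023256 (VIT_205s0029g00200, chromosome 5, 14513404 to 14521109) was listed at 0 in all treated clusters of 6 WAA and had 2 units in each treated cluster of 8 WAA. At 7 WAA it had 1, 2, 1, 0 and 2 units in treated and 0, 2, 3, 3 and 0 units in control clusters, overlapping ranges. Its difference between treated clusters of 8 and 6 WAA was 1.61 ± 0.30 (SE, adjusted p = 0.0533). That difference passed when libraries of 7 WAA were left out of the fit (adjusted p = 1.46e-10, with no variation left within a week), and without treated replicate 2, 4 or 12 of 7 WAA (adjusted p = 0.0394, 0.000192 and 0.0377). An overlapping locus assembled on the opposite strand, XLOC_022413, was on in 4 treated and 3 control libraries of 8 WAA and in none of the earlier weeks. How reads were divided between it and XLOC_023256 was not tested. XLOC_021778 (VIT_204s0044g01160, chromosome 4, 22531674 to 22533447) was listed at 0 in all treated clusters of 6 WAA, had 0, 0, 0, 1 and 1 units in treated and 0, 1, 1, 1 and 1 units in control clusters of 7 WAA, and had 2, 1, 1, 1 and 1 units in treated clusters of 8 WAA (difference 8 minus 6 WAA 1.14 ± 0.28, SE, adjusted p = 0.128, and 0.0121 without the libraries of 7 WAA). XLOC_025102 (VIT_206s0080g00260, chromosome 6, 20053121 to 20058100) was among the 3 most abundant of the set in control clusters of 8 WAA, at 2, 2, 3, 2 and 3 units. It had 2, 1, 0, 2 and 2 units in treated clusters of 8 WAA, 2, 0, 0, 0 and 0 units in treated and 0, 0, 1, 3 and 1 units in control clusters of 7 WAA, and 0 in all treated clusters of 6 WAA (8 minus 6 WAA 1.17 ± 0.45, SE, adjusted p = 0.498).

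The full switch held in treated clusters for only 16 of the 63 loci. A smaller share of treated libraries had the locus on at 8 WAA than at 6 WAA for 6 of the 63. XLOC_020875 (VIT_204s0023g02590, chromosome 4, 19138403 to 19142192) ran in the opposite direction: its treated clusters had 2, 2 and 1 units at 6 WAA, 1 unit in each replicate at 7 WAA and 0, 1, 0, 0 and 0 units at 8 WAA. Its control clusters had 2, 1, 2, 2 and 1 units at 7 WAA and 1, 2, 1, 1 and 1 units at 8 WAA. The treated values of 8 and 6 WAA overlapped only at 1 unit, and the difference was -1.21 ± 0.23 (SE, limma, adjusted p = 0.0582). It passed the threshold without treated replicate 3 of 6 WAA (adjusted p = 0.0398) or without treated replicate 2 of 8 WAA (adjusted p = 0.000244).

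The other loci that were on in all 3 treated clusters of 6 WAA stayed on in most later libraries. XLOC_020632 (VIT_204s0069g01150, chromosome 4, 9840991 to 9842587) had 2, 1 and 2 units in treated clusters of 6 WAA, and 1, 2, 0, 2 and 2 units in treated against 0, 0, 1, 2 and 1 units in control clusters of 7 WAA. XLOC_011954 (VIT_216s0100g01130, chromosome 16, 16618991 to 16624707) also had 2, 1 and 2 units in treated clusters of 6 WAA, and 2, 2, 0, 2 and 1 units in treated against 0, 2, 0, 0 and 1 units in control clusters of 7 WAA. Treated and control values of 7 WAA overlapped at both. XLOC_008887 (VIT_214s0036g00690, chromosome 14, 10848096 to 10850485) had 1, 1 and 2 units in treated clusters of 6 WAA, and 1, 0, 1, 1 and 1 units in treated against 1, 2, 0, 1 and 1 units in control clusters of 7 WAA. XLOC_005612 (no reference identifier, chromosome 12, 21751513 to 21756774) stood at 1 unit in all 3 treated clusters of 6 WAA, in all 10 libraries of 7 WAA and in 4 of 5 treated clusters of 8 WAA, with 2 units in the other. Among the 23 libraries outside control 6 WAA it was on in every one. In these loci the control clusters of 6 WAA were the only group listed at 0 throughout, which the selection required, so a 1-MCP difference at 6 WAA was not tested.

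The last comparison asked whether the loci differed between treated and control clusters at 7 WAA, the week the selection did not touch. Of the 63 loci, 13 were on in all 5 treated libraries (33.5% of all loci were) against 9 in all 5 control libraries, and 14 were off in all 5 treated libraries (44% of all loci were) against 2 in all 5 control libraries. Treated libraries outnumbered control libraries among those with the locus on for 21 of the 63 loci (33.3%, against 12.8% of all loci), and control libraries outnumbered treated ones for 26 (41.3%, against 12.3% of all loci). The numbers were equal for 16 (25.4%, against 74.9% of all loci). Treated minus control counts of loci on were 24, -18, -8, -10 and 0 in plants 1, 2, 3, 4 and 12. The direction therefore differed between plants, and the largest difference was in plant 1, whose control cluster had the fewest loci on.

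**Figure D5:**
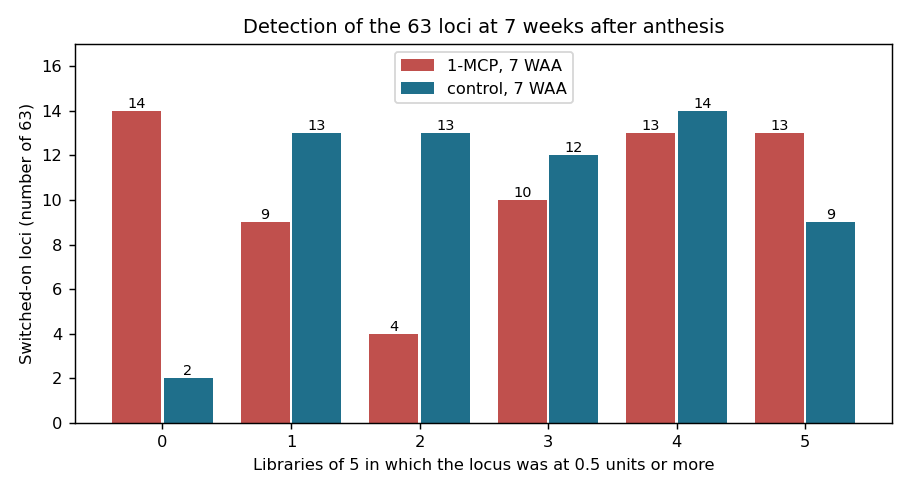
Number of the 63 loci (vertical axis) by the number of 7 WAA libraries, out of 5, in which they were on (horizontal axis), in treated (red) and control (blue) clusters. Treated clusters have more loci at both ends, 14 in no library and 13 in all 5, against 2 and 9 in control clusters.

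With plant as a block, limma called none of the 63 loci at 7 WAA, beside 0.0161% of all tested loci higher and 0.00537% lower in treated clusters. None of the 63 reached an unadjusted p under 0.05 in that fit, beside 306 of the 18622 tested loci higher and 263 lower. At that level there were 3, all lower, without the block, beside 522 of all tested loci higher and 349 lower. A fit of all 26 libraries gave 8 (1 higher, 7 lower), beside 617 higher and 405 lower. That fit takes part of its spread from control values of 6 and 8 WAA, which the selection fixed, so no conclusion is drawn from it. With no filter on low values there were 2 (1 higher, 1 lower), beside 400 of 20128 loci higher and 330 lower. With 1 plant left out there were 2 to 6. The 6 without plant 1 were all lower, beside 476 of all tested loci higher and 317 lower. With plant as a block and all 5 plants, the smallest p was shared, to 3 digits, by a pair of loci with opposite signs. XLOC_004324 was at 0 units in every treated cluster against 0, 1, 1, 1 and 0 units in control clusters. Its difference was -0.62 ± 0.24 (SE) on the log2 scale (limma, adjusted p = 0.812). XLOC_008440 (VIT_214s0108g00580) had 1, 2, 1, 0 and 1 units in treated against 0, 2, 0, 0 and 0 units in control clusters, and its difference was 0.61 ± 0.23 (SE, adjusted p = 0.812). Both pairs of groups overlapped. For XLOC_029382 the values, given above, were 1, 0, 0, 0 and 0 units in treated against 0, 5, 0, 4 and 0 units in control clusters, which overlapped. Its difference was -0.80 ± 0.67 (SE, limma, unadjusted p = 0.293). The test of treated 8 against 7 WAA had called this locus partly for its low treated values of 7 WAA, so its treated side here is not independent. The median difference over the 63 loci was -0.09, beside -0.009 over all loci, with 32 of the 63 lower and 19 higher by more than 0.05 in treated clusters, beside 31.8% and 36.8% of all loci. The lower median was not stable to single plants: it was 0 without plant 2 (23 loci higher and 23 lower), -0.009 without plant 3, -0.006 without plant 4 and -0.114 without plant 12. With 0.1 in place of 1 added before the logarithm it was -0.016, beside -0.015 over all loci. Without plant 1 the median over the 63 was -0.255 and 1 locus, XLOC_016435, fell. It had 1, 0, 0, 0 and 0 units in treated against 0, 1, 1, 1 and 1 units in control replicates 1, 2, 3, 4 and 12, so plant 1 ran against the other 4 (difference without plant 1, -1.03 ± 0.016, SE, adjusted p = 0.00216); its residual SD there was 0.007, so that error is again the size of the unit and not a spread between plants. The lack of calls does not show that treated and control clusters were alike at these loci.

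By annotation, 42 of the 63 loci (66.7%) matched a reference gene model, against 82.3% of all loci that were on in at least 1 library. Of the rest, 12 (19.0%) had no reference identifier, against 2178 of the 21723 loci on in at least 1 library, and 9 (14.3%) lay opposite to a reference gene, against 7.24%. Single-isoform loci made up 50.8% of the 63 and 38.5% of loci on in at least 1 library, and the median length of the longest isoform was 1534 bases against 1941 bases. Chromosome 4 held 10 of the 63 loci (15.9%, against 5.4% of loci on in at least 1 library). Chromosomes 8 and 14 held 6 each (9.52%, against 6.06% and 6.45%), and chromosomes 11 and 17 held none (against 4.11% and 4.14%). These shares were not tested. A further 5 loci lay on unplaced or unassigned sequence (7.94%, against 9.71% of loci on in at least 1 library), where reads may be shared with copies elsewhere and the values are uncertain. Neighbouring members were few: 3 pairs lay within 100 kb of each other, among them XLOC_011951 and XLOC_011954 on chromosome 16, separated by 61257 bases.

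The 9 loci assembled opposite to a reference gene overlap loci on the other strand, and strand-specific counting is not stated, so reads from a locus and from its partner cannot be told apart. XLOC_008652 was on in 18 libraries and its partner XLOC_007661 in 6, never in the same one, and the partner stood at 1 unit in each of the 3 control clusters of 6 WAA and at 0 in all 5 of 8 WAA. XLOC_021259 and its partner XLOC_020382 were on in 11 and 10 libraries and likewise never in the same one. At both pairs no library had both strands on, but values under 0.5 units count as off here. XLOC_008652 was listed at 0.000345 units in the control clusters of 6 WAA, where its partner stood at 1 unit. XLOC_021259 was listed at 0.44 units in treated replicate 3 of 6 WAA. How signal was divided between the strands was not tested. For XLOC_016435, XLOC_018953 and XLOC_023817 the partner was on in all 26 libraries, of which 15, 13 and 18 also had the member on. For XLOC_004645, XLOC_017599, XLOC_026100 and XLOC_027136 the partner was on in none.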

How the data were processed

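For each library the authors deposited a signal for each of 90542 assembled isoforms, and an attribute table with locus, reference identifier, coordinates and isoform length in bases, another measure used as deposited. The signal is on the authors' scale and is not a read count. Bowtie2 2.2.3 is named per the submitters' processing notes; the quantifier, genome build, annotation and strandedness are not stated in the labels or file headers and so not given here. Isoforms were summed per locus and divided by the library's commonest value above 0.5 (1.02702 to 1.05477), which put 97.7% to 98.5% of locus sums above 0 within 0.01 of a whole unit. Depth in reads is unknown. Deposited lengths equalled end minus start in 6059 of 19374 single-isoform loci and never that plus 1, so starts were printed 1-based.

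The members, lists and tests were chosen with earlier results of these data known. Control values of 6 and 8 WAA chose the members and entered no test in the report, apart from an alternative fit of all 26 libraries for 1-MCP at 7 WAA. limma 3.58.1 (R 4.3.3, moderated, without trend) was run on log2(value + 1) after removing loci that reached a value of 1 in fewer than 3 of the 26 libraries. Treated weeks were compared in 13 treated libraries, and 1-MCP at 7 WAA in 10 libraries with plant as a block; Benjamini-Hochberg adjustment covered all 18622 tested loci, threshold 0.05. Plants are the replicates, per the series design text, which also says that treated and control clusters share a plant. In the deviations from group means, same-plant libraries of 7 WAA correlated at -0.089 to 0.064 and other pairs at -0.105 to 0.108. The fits were tested on simulated data. Named are loci that switched in treated libraries (10 by level), were on or off in all control 7 WAA libraries (6 each by level), were on in at most 1 treated 8 WAA library, passed a test, were on in all treated 6 WAA libraries (6 by level), or were the 3 highest at control 8 WAA. Alternatives varied the detection threshold, isoform summing, filter, pseudocount, block and libraries. Against RefSeq genes (GCF_030704535.1), 0 of 31919 reference identifiers matched, so names and sequences were not used here.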

Additional observations from a re-analysis of the deposited data

Results flagged for a closer look

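Of 35 groups of values examined, 3 had 1 library apart from the rest of its group. The cut-off is meant to flag about 1 of 20 groups of continuous values by chance. Most values here were tied whole units, and loci were examined only where a group ranged over at least 1.5 units. That rate therefore does not apply, and the rate by chance is unknown. The summed level of the 63 loci in treated clusters of 7 WAA was lowest in replicate 3, at 27.0 units, apart from 45.9, 42, 43 and 47 units in the other 4. XLOC_025102 had 2 units in treated replicate 1 of 7 WAA and 0 in the other 4 treated clusters. XLOC_021724 had 2 units in control replicate 2 of 7 WAA and 0 in the other 4 control clusters.

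XLOC_020875 was higher in treated than in control clusters in all 3 plants of 6 WAA, by 1.67 units on average, and lower in all 5 plants of 8 WAA, with a mean difference of -1 unit. The change of direction between weeks was not tested, and the control values of both weeks were used to choose the locus.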

How the results depend on the processing

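No call of the 10 loci that rose changed sign under the alternatives run. They were listed at 0 in all treated libraries of 6 WAA and on in all of 8 WAA. Leaving out a library or changing the filter or pseudocount could therefore not turn the sign between those weeks. With replicate number as a block, XLOC_000298, XLOC_012100, XLOC_020992 and XLOC_028487 no longer passed. With single isoforms in place of locus sums, 94 isoforms met the selection, and 4 of these 94 were off in all control 7 WAA libraries, against 2 of the 63 loci. Between treated 8 and 6 WAA, a fit of those weeks alone called 349 of all loci (79 as reported, 15 members). Between 7 and 6 WAA it called 70 loci and 1 member, XLOC_017599, against 25 and 0. Replicate numbers of treated weeks share only a number (2 of 13 libraries correlated best with their own); the replicate block gave 65 calls for 8 against 6 WAA (7 members), 39 for 7 against 6 WAA (0 members) and 36 for 8 against 7 WAA (7 members). For 1-MCP at 7 WAA, 4 loci were called with the plant block, 8 with no replicate block, 1 in a fit of all 26 libraries and 8 with a pseudocount of 0.1, none of them a member. Over all loci the balance of calls did turn: for 1-MCP at 7 WAA it was 3 higher and 1 lower as reported but 0 and 1 in the fit of all 26 libraries, and for treated 8 against 7 WAA it was 24 higher and 33 lower but 19 and 17 with the replicate block and 25 and 19 without treated replicate 2 of 7 WAA. A pseudocount of 0.1 raised the members' medians to 2.33 (8 against 6 WAA), 0.653 (7 against 6 WAA) and 1.002 (8 against 7 WAA). The causes were not tested.

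Leaving out 1 library at a time, with the selection remade where it used that library, gave 72 to 147 members. It gave 9 to 46 members on and 2 to 11 off in all control 7 WAA libraries, 35 to 90 on in all treated 8 WAA libraries, and 16 to 24 that switched in treated clusters. These counts could only stay or grow, since each requires all libraries of a group to be on or off. Calls ranged from 68 to 160 loci (10 to 13 members) for treated 8 against 6 WAA, 27 to 76 (0 to 3) for 7 against 6 WAA, 43 to 184 (10 to 12) for 8 against 7 WAA, highest without treated replicate 4 of 7 WAA, and 22 to 32 (0 to 1) for 1-MCP at 7 WAA. Read depth is unknown, so a listing at 0 sets no upper limit.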
